A study of Mus musculus with 4 samples.

Results

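Matricellular proteins are secreted into the matrix around cells without forming its load-bearing fibres. They bind collagens, growth factors and cell-surface receptors such as integrins, and they are known for their presence in growing, healing or mechanically loaded tissue. In teeth, periostin is a familiar product of the periodontal ligament, and tenascins, thrombospondins and SPARC are made by pulp and ligament fibroblasts. The gene set described here holds 10 members chosen by symbol: Postn, Tnc, Tnn, Sparc, Thbs1, Thbs2, Cthrc1, Smoc2, Cyr61 and Ctgf, the last pair being the older symbols of Ccn1 and Ccn2. All 10 had a row of their own among the 24216 rows of the authors' deposited table, and all 10 were among the 18770 rows that the authors tested.

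The values come from 4 RNA sequencing libraries of XLacZ4 mice, 2 from molar pulp and 2 from incisor pulp. XLacZ4 is a transgenic reporter strain in which mural cells of vessels (pericytes and smooth muscle) make beta-galactosidase, and both tissues carried it. Dissociated tooth cells were stained with FDG, which fluoresces once beta-galactosidase has cut it, and the positive cells were sorted. The labels give neither age nor sex, and they do not say whether separate mice stand behind the 2 libraries of each tooth type. The incisor entries carry a protocol text that speaks of molars, and each library is placed here by its title, source name and tissue entry. The mouse incisor grows throughout life and the molar does not. The labels name pulp, and no library of periodontium. The table holds 1 FPKM value per tissue (fragments per kilobase of transcript and per unit of sequencing depth), in which the authors had combined the libraries, so no value below has an SD, and the depth of the libraries cannot be read from it. FPKM is a level per transcript length, but the difference between the tissues varied with length over the whole table, as given below, so ratios and orders between genes of different length are descriptions of the deposited values. A gene is named called where the authors' q, their p-value adjusted over all tested rows, was under 0.05, and q speaks only for these libraries, whose spread may be technical.

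The members differed in direction among themselves. Of the 10, 4 were called higher in incisor (Postn, Tnn, Thbs2 and Smoc2), 1 was called higher in molar (Cthrc1), and 5 were not called (Tnc, Sparc, Thbs1, Cyr61 and Ctgf) in the authors' deposited table. Over all tested rows, 4.28% were called higher in incisor, 11.9% higher in molar and 16.2% in either direction. The share called depends on level, and among rows with at least 5 FPKM in the higher tissue it was 30.7%. With that minimum 9 members remained, 5 of them called. Those 5 were also called at q under 0.01, a threshold passed by 11.1% of tested rows, and by the authors' own mark of significance, carried by 17.3%. Each of the 5 has q = 0.000664, the smallest q of the tested rows, which 1414 of them share. That value therefore does not rank the genes that hold it. On the scale log2((molar FPKM + 1) / (incisor FPKM + 1)), the 10 members had a median of -1.29, against 0.14 over the 13080 tested genes with 1 FPKM or more in either tissue. The plot of levels by gene shows both tissues.

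**Figure D1:**
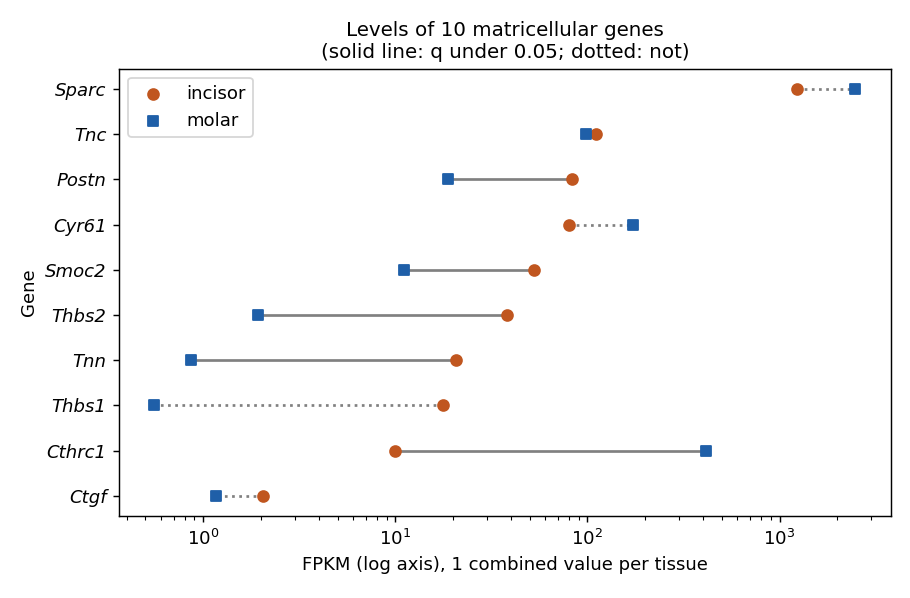
FPKM on a log axis (horizontal) for each of the 10 matricellular genes (vertical, ordered by incisor level), with circles for incisor and squares for molar, 1 combined value per tissue and no error bars. Solid lines join the values of the 5 genes with q under 0.05, dotted lines those of the other 5. Cthrc1 is the only called gene whose molar value lies to the right, 412 against 9.97.

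The start regions of Postn, Tnn and Thbs2 are shown because these genes were called in the same direction, with the start region of Tnc beside its relative Tnn because Tnc was not called. RefSeq promoter windows (GRCm38.p6, the assembly of mm10) whose start site coincides with the gene edge in the authors' table were found for 6 members, Postn, Tnc, Tnn, Sparc, Thbs2 and Cyr61. The 250 bases before the start site are printed 5′ to 3′ on the strand of the gene. Capitals mark every match, on either strand, to the TATA box (TATAAA), the TEAD core (GGAATG), the SMAD core (CAGAC), the AP-1 site (TGANTCA), the RUNX core (TGTGGT) or the CArG box of serum response factor.
Postn, plus strand, chr3:54360857-54361106: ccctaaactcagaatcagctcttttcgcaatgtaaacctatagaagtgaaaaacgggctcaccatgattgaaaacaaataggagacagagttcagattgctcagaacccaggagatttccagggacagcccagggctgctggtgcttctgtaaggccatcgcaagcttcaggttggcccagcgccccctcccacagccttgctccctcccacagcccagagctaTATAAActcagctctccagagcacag
Tnn, minus strand, chr1:160153576-160153825: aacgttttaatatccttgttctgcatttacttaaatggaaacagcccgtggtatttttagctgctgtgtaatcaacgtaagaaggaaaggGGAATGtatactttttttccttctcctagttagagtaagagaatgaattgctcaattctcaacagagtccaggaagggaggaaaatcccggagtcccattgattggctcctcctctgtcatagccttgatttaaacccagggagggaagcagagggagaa
Thbs2, minus strand, chr17:14694263-14694512: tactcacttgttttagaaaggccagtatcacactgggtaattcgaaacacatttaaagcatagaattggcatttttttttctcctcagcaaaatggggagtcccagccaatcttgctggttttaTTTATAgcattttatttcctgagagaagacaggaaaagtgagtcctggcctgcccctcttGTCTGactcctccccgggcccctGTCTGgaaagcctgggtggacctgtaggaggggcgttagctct
Tnc, minus strand, chr4:64047016-64047265: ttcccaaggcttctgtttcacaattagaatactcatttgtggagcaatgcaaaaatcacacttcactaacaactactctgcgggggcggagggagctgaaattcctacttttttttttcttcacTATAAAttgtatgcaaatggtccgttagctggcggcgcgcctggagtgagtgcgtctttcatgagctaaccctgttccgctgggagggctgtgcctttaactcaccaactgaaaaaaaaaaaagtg

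No motif was found in all of the windows of Postn, Tnn and Thbs2. The TATA letters lay 26 to 21 bases before the start of Postn, and further away, 126 to 121 bases before the start, in both Thbs2 and Tnc. In Thbs2 the match was on the opposite strand (TTTATA), in Tnc on the strand of the gene. Tnn had no TATA match, and its single match was the TEAD core, 160 to 155 bases before the start. Thbs2 held the SMAD core at 2 places, starting 66 and 43 bases before the start, and the window of Sparc held it 35 to 31 bases before. The window of Cyr61, a textbook target of the YAP and TEAD factors, held TATA letters 25 to 20 bases and the TEAD core 103 to 98 bases before the start. Over all 32851 promoter windows of this length, 12.4% held the TATA letters, 12.6% the TEAD core, 42.2% the SMAD core, 6.75% the AP-1 site, 14.0% the RUNX core and 1.47% the CArG box. None of the 6 members' windows matched the AP-1, RUNX or CArG letters. These matches are descriptions of letters in a short window, not sites shown to be bound.

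Postn was lower in molar but abundant in both tissues. The gene encodes periostin, a fasciclin-domain protein that binds collagen I, fibronectin and tenascin-C (chromosome 3, 54361107 to 54391041 on mm10). It stood at 83.1 FPKM in incisor and 18.8 in molar in the authors' deposited table. It was 4.43-fold higher in incisor, a log2 difference of -2.15 for molar over incisor, with q = 0.000664. Its level lay at the 96.2th percentile of single-gene rows in incisor and at the 85.7th in molar. As in any bulk sample, fewer cells that make a transcript and less of it per cell cannot be told apart here.

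The tenascins, large glycoproteins that loosen cell adhesion, divided. Tnc, tenascin-C (chromosome 4, 63959785 to 64047015), stood at 111 FPKM in incisor and 98.5 in molar, with a log2 difference of -0.17 and q = 0.606 in the authors' deposited table. Tnn, tenascin-W, a tenascin of bone, periosteum and stem cell niches (chromosome 1, 160085032 to 160153575), stood at 20.7 in incisor and 0.860 in molar. That is a 24.1-fold higher level in incisor, with q = 0.000664. Tenascin-C was the more abundant of the pair in each tissue, 5.35 times Tnn in incisor and 115 times in molar. Of the remaining family genes, Tnr was not called, at 0.0182 FPKM in incisor and 0.196 in molar. Tnxb was not tested, at 0.00235 and 0.0562.

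Both thrombospondins, trimeric proteins that bind CD36 and CD47, restrain vessel growth and in the case of Thbs1 activate latent TGF-beta, were listed far lower in molar, but only Thbs2 was called. Thbs2 (chromosome 17, 14665500 to 14694262) stood at 37.9 FPKM in incisor and 1.94 in molar in the authors' deposited table, 19.6-fold higher in incisor with q = 0.000664. Thbs1 (chromosome 2, 118111876 to 118127133) stood at 17.7 in incisor and 0.555 in molar. Its ratio was 31.9-fold, and it was not called, with an authors' p of 0.103 and q of 0.252. By the ratio this exceeds Thbs2, but with a pseudocount of 1 the log2 difference was -3.59 for Thbs1 and -3.73 for Thbs2. Of 48 tested rows with at least 10 FPKM in incisor and a level at least 16-fold lower in molar, 23 were called and 25 were not. By the authors' test statistic, -3.77 for Thbs1, the missing call was less usual, since of 385 tested rows with an absolute statistic of 3.5 to 4, 357 were called and 28 were not, and Smoc2, at -3.68, was called. The q of Thbs1 was shared by 3232 tested rows, and how the authors' test reached it from each library is not known here. In the wider family Thbs3 stood at 14.6 in incisor and 4.90 in molar (q = 0.0688, not called), Thbs4 at 0.945 and 1.0004, and Comp, the cartilage thrombospondin, at 0.146 and 0.279.

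The SPARC family held the most abundant member and another incisor-higher one. Sparc, osteonectin, a collagen-binding protein of bone and dentin matrix (chromosome 11, 55394159 to 55420080), stood at 1228 FPKM in incisor and 2484 in molar in the authors' deposited table. Both levels lay at the 99.8th percentile of single-gene rows. The log2 difference of 1.02 was not called (q = 0.252). Sparc made up 74.7% of the summed FPKM of the 10 members in incisor and 77.6% in molar, so the sum of the set (1643 and 3203) is mostly a statement about Sparc. Smoc2, a modular calcium-binding relative that modifies growth factor signalling (chromosome 17, 14279506 to 14404790), stood at 52.9 in incisor and 11.1 in molar, 4.75-fold higher in incisor with q = 0.000664. The row of Smoc2 shares its interval with 4930474M22Rik. Of 15 tested relatives of the 10 members, 2 were called toward molar, 1 toward incisor and 12 not at all, with a median log2 difference of -0.24. Fstl1 was called higher in incisor (854 against 173, q = 0.000664), and Sparcl1, hevin, was called higher in molar (107 against 43.8, q = 0.0370), as was the proteoglycan gene Spock2 (3.51 against 1.08, q = 0.0481) in the authors' deposited table.

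Cthrc1 went the other way from the rest of the called members. This gene encodes a secreted collagen triple helix repeat protein that is induced in injured vessels and bone and limits collagen deposition (chromosome 15, 39076932 to 39087119). Its level was 9.97 FPKM in incisor and 412 in molar in the authors' deposited table, 41.3-fold higher in molar with a log2 difference of 5.37 and q = 0.000664. In incisor it was the ninth of the 10 members by level and in molar the second, after Sparc. Cthrc1 made up 0.607% of the summed FPKM of the 10 members in incisor and 12.9% in molar. Postn was 8.34 times as abundant as Cthrc1 in incisor and 0.0456 times as abundant in molar.

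The CCN proteins bind integrins and growth factors, and Cyr61 and Ctgf are early-response genes induced by serum, stretch and YAP activity. Cyr61 (chromosome 3, 145646971 to 145649985) stood at 80.1 FPKM in incisor and 174 in molar in the authors' deposited table, 2.17-fold higher in molar, and was not called (p = 0.0259, q = 0.117). Ctgf (chromosome 10, 24595442 to 24598682) was low in both, at 2.05 in incisor and 1.16 in molar (q = 0.387). Cyr61 was thus 39.0 times as abundant as Ctgf in incisor and 150 times in molar, although the exons of Ctgf overlap those of the antisense gene Gm15270 over 23.2% of their bases in GENCODE M21, which makes its level uncertain. The same overlap was 3.43% for Thbs1 and 2.26% for Tnc, and no exon overlap was found for the other 7 members. The other CCN genes were lower than Cyr61. Wisp1 stood at 5.66 in incisor and 9.69 in molar, Wisp2 at 2.16 and 0.169, Nov at 0.0225 and 0.527 and Wisp3 at 0.631 and 0.0189, and none was called.

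Set in order of level, the incisor series ran Sparc, Tnc, Postn, Cyr61, Smoc2, Thbs2, Tnn, Thbs1, Cthrc1 and Ctgf, and the molar series ran Sparc, Cthrc1, Cyr61, Tnc, Postn, Smoc2, Thbs2, Ctgf, Tnn and Thbs1. With 1 value per tissue, no spread separates neighbours in either order. All 10 were above 2 FPKM in incisor. In molar the lowest were Thbs2, Ctgf, Tnn and Thbs1, all under 3.81 FPKM, the 99th percentile of 1463 olfactory, vomeronasal and taste receptor genes there, a list whose use as a background was chosen after values of these data were known. The same percentile in incisor was 0.138, below all 10 members. The molar levels of these 4 genes, and so the size of their folds, are uncertain. The same holds for other genes named here with molar values under 3.81, among them Spock2, Itgav, Tgfbr3, Skil, Tnmd and Dspp.

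**Figure D2:**
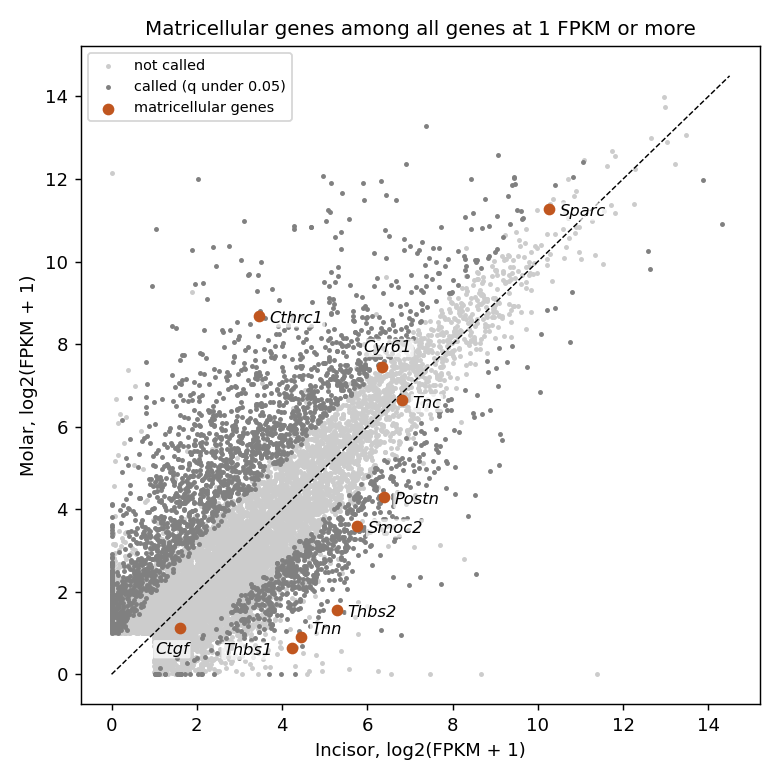
Each point is a gene with 1 FPKM or more in either tissue, with log2(FPKM + 1) in incisor (horizontal) and in molar (vertical), and the dashed line marks equal levels. The 10 matricellular genes are named. Thbs2, Tnn and Thbs1 lie well below the line at molar levels of 1.94, 0.860 and 0.555 FPKM, and Cthrc1 lies above it at 412.

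Transcript length moved with the direction of most members. The members with a higher value in molar have short mRNAs, 1166 bases for Cthrc1, 2019 for Cyr61 and 2300 for Sparc (longest RefSeq-linked transcript in GENCODE M21). Those with the largest differences toward incisor have long ones, 5817 bases for Tnn, 5848 for Thbs1 and 5895 for Thbs2. Ctgf (2398 bases), Smoc2 (2832) and Postn (3205) lie between them in length and had lower values in molar. Tnc has the longest mRNA of the members, 7100 bases, but a log2 difference of only -0.17. A slope with length also ran through the whole table. Over 1230 genes of 1000 to 1500 bases the median log2 difference (pseudocount 1) was 0.98, with 32.8% called toward molar and 1.22% toward incisor. Over 2753 genes of 2000 to 3000 bases, the class of Sparc, Cyr61, Smoc2 and Ctgf, it was 0.08, with 15.0% and 6.54%. Over 2341 genes of 4000 to 6000 bases it was -0.25, with 8.12% and 8.24%. Across 12059 genes, which share the same libraries and are not replicates, Spearman's rho between length and log2 difference was -0.37.

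Set against genes of like length, the called members kept their direction. Cthrc1, at 5.23 on this scale, was 4.25 above the median of its length class, with 98.1% of those genes below it. The differences from the class median were -3.48 for Thbs2, -3.34 for Thbs1 and -3.30 for Tnn. The share of their class that lay lower was 0.214% for Thbs2, 0.256% for Thbs1 and 0.299% for Tnn. Smoc2 at -2.23 and Postn at -1.90 had 3.27% and 4.56% of their classes below them. Sparc at 0.93 and Cyr61 at 1.03 had 76.7% and 78.6% below them. Tnc, with 7100 bases, changed sign, from -0.17 to 0.10. The part of length in the difference between the tissues was not tested.

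**Figure D3:**
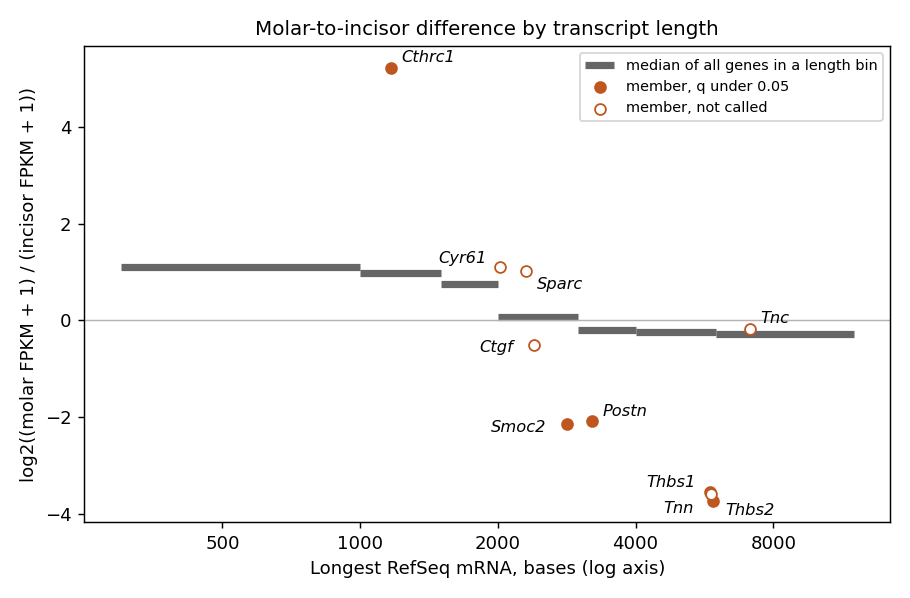
The difference log2((molar FPKM + 1) / (incisor FPKM + 1)) of the 10 matricellular genes against mRNA length in bases on a log axis, with filled circles for genes with q under 0.05 and open circles for the others. Grey bars give the median of all genes in each of 7 length classes, from 1.10 in the shortest to -0.27 in the longest, and Cthrc1, Thbs2, Thbs1 and Tnn lie more than 3 log2 units from their bars.

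The genes closest to the extreme members in level were of other kinds. Likeness was the distance between genes in the plane of log2(FPKM + 1) in incisor and in molar, thus over 2 tissues. Nearest to Cthrc1 was the respiratory chain gene Cox7c (10.2 in incisor and 445 in molar, distance 0.12). After it came the ATP synthase gene Atp5l (11.1 and 398, distance 0.15) and the ribosomal protein gene Rpl5 (8.54 and 358, distance 0.28). Among the nearest to Tnn were Ap1m2 (19.97 and 1.06, distance 0.15) and Acpp (21.04 and 0.601, distance 0.22). Nearest to Sparc were Rpl13a (1255 and 2709, distance 0.13), Apoe (1306 and 2909, distance 0.24) and B2m (1015 and 2440, distance 0.28).

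Receptors of matricellular proteins were called in both directions. Of 24 tested, 3 were called toward incisor, 2 toward molar and 19 not at all, with a median log2 difference of -0.55. For this and the other lists, the shares over all tested rows were 4.28% toward incisor, 11.9% toward molar and 16.2% in either direction. The last was 30.7% among rows with at least 5 FPKM in the higher tissue. The median over all tested genes with 1 FPKM or more was 0.14. Cd47, a receptor of thrombospondins, was higher in molar (28.4 against 8.91, q = 0.0118), as was calreticulin, Calr, a chaperone that also serves thrombospondin at the cell surface (447 against 128, q = 0.00278). On the incisor side the authors' deposited table called Sdc4, a heparan sulfate proteoglycan of focal adhesions (458 against 159, q = 0.0154), the integrin chain Itgav, which takes part in binding of periostin and CCN proteins (3.34 against 0.850, q = 0.0428), and the Wnt co-receptor Lrp6 (6.83 against 2.33, q = 0.0294). Among the uncalled receptors were Cd36 (26.8 in incisor and 13.7 in molar), Itgb1 (39.3 and 17.4, q = 0.0565 and marked by the authors), Itgb5 (29.9 and 18.7), Lrp1 (12.4 and 6.39) and the SPARC scavenger Stab1 (30.4 and 33.4).

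Collagens, fibronectin, proteoglycans and matrix enzymes that these proteins bind were called in both directions, 2 of 18 toward molar and 2 toward incisor, with a median log2 difference of -0.22. Fn1, fibronectin, stood at 49.5 in incisor and 28.9 in molar, Col1a1 at 316 and 154, Col3a1 at 83.5 and 150, and Bmp1, the protease that periostin brings to collagen and lysyl oxidase, at 27.1 and 15.8. On the incisor side the authors' deposited table called Col6a1 (107 against 35.5, q = 0.00955) and Col12a1, a tension-associated collagen (13.7 against 5.44, q = 0.0244). The small proteoglycan genes Dcn (1047 against 367, q = 0.0288) and Fmod (246 against 71.8, q = 0.00508) were called higher in molar.

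Genes of the pathways that drive matricellular genes divided as well. Of 29 YAP and TEAD factors and targets other than the CCN genes, 4 were called toward incisor and 3 toward molar, with a median of -0.03. Among the called were F3 (9.83 against 1.41), Gadd45a (9.39 against 1.99) and Fjx1 (8.25 against 2.07) on the molar side and Ccdc80 (60.4 against 9.20), Igfbp3 (33.0 against 8.05) and Axl (15.0 against 5.25) on the incisor side. Of 18 TGF-beta genes, 3 were called in each direction, with a median of 0.10. The ligand Tgfb3 (74.3 against 30.5), the co-receptor Tgfbr3 (4.56 against 0.725) and the Smad repressor Skil (15.0 against 3.35) were called toward incisor. The latent complex genes Ltbp1 (4.85 against 1.70) and Ltbp3 (9.12 against 1.496) and the repressor Tgif1 (178 against 76.3) were called toward molar in the authors' deposited table. Immediate-early genes, which respond to handling within minutes, were called toward molar in 14 of 24 cases and toward incisor in none, while by value 21 were higher in molar and 3 in incisor, with a median of 1.94 and a summed level of 953 in incisor and 7972 in molar. Ier3 (2859 against 60.1), Zfp36 (1243 against 148) and Fos (1008 against 194) had the highest molar levels of those called. Cyr61, Ctgf and Thbs1 belong to the same early-response class by their known induction, and only Cyr61 had a higher value in molar. The part of handling in these levels was not tested.

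**Figure D4:**
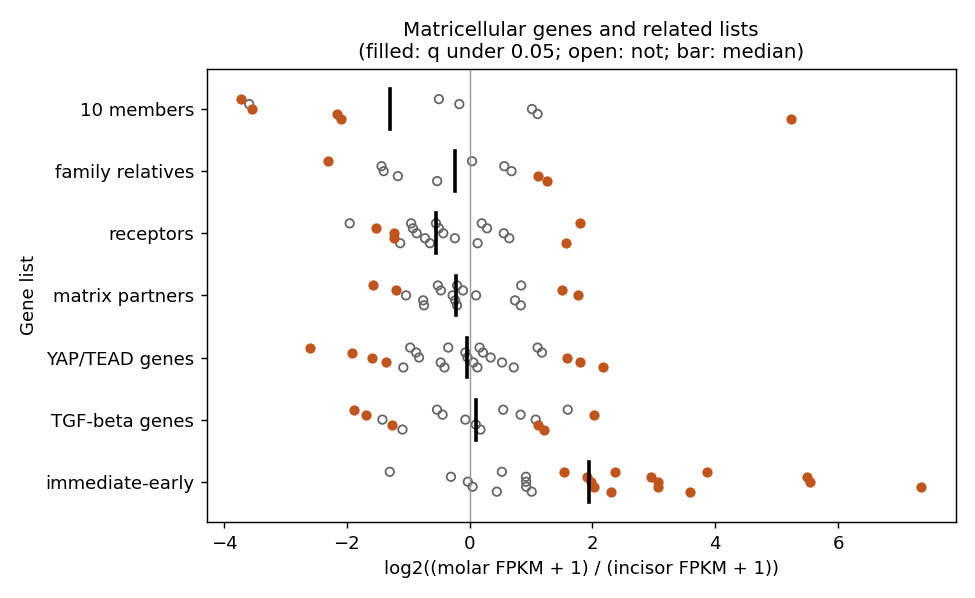
The difference log2((molar FPKM + 1) / (incisor FPKM + 1)) (horizontal) for genes with 1 FPKM or more in either tissue, by gene list (vertical), with filled circles for genes with q under 0.05, open circles for the others and a bar at the median. The medians were -1.29 for the 10 members, between -0.55 and 0.10 for relatives, receptors, partners, YAP and TGF-beta genes, and 1.94 for immediate-early genes.

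Markers of the cells that the sort could hold moved with the tissue too, and their part in the values above was not tested. Of 12 mural markers, 3 were called toward incisor and 2 toward molar, with a summed level of 840 FPKM in incisor and 329 in molar. That sum was carried by Rgs5 (537 and 127) and Tagln (153 and 12.4), and the other 10 markers summed to 149 and 189. Most of the molar remainder came from Kcnj8 (15.98 and 108). By value 3 of the 12 mural markers were higher in molar. Periodontal ligament markers other than the members gave 3 calls toward incisor and 2 toward molar among 11 tested. Their sums were 1938 and 3536, mostly from Lum (1551 and 2779). By value 6 of the 12 listed markers were higher in molar. The defining ligament factor Scx (0.0565 in incisor, 0.0749 in molar) was not tested. The ligament protein Tnmd was called toward incisor, at 9.30 against 0.853 (q = 0.0419), as were Col12a1 and Spon1. The calls toward molar were Alpl (183 against 61.1, q = 0.00756) and Fmod (246 against 71.8, q = 0.00508). Odontoblast and osteoblast markers summed to 190 and 30.4 (of 10, 2 called toward incisor and 0 toward molar) and dental epithelial markers to 23525 and 2642 (of 12, 9 called toward incisor and 0 toward molar). The former sum was carried in incisor by Dspp (109 and 0.921) and Ibsp (43.0 and 3.71), and by value 5 of the 10 were higher in molar. The epithelial sum was mostly Amelx (20642 and 1937), and by value 2 of the 12 were higher in molar. Endothelial markers summed to 21.4 and 315 (of 12, 11 called toward molar and 0 toward incisor, with Cldn5 listed at 0 in incisor) and macrophage markers to 6538 and 11235 (of 12, 5 called toward molar and 0 toward incisor). Pulp fibroblast markers summed to 2734 and 4712 (of 10, 3 called toward molar and 2 toward incisor). Most of that sum came from Lum, which is also in the ligament list, and Dcn (367 and 1047). By value 6 of the 10 were higher in molar. Platelets store thrombospondin-1 and SPARC, and 1 of 6 tested platelet markers was called, toward molar. This was Pf4, which macrophages also make, at 692 in incisor and 4257 in molar, while Ppbp stood at 1.41 and 3.60 and was not called. Gp9, Gp1ba and Itga2b were all under 1 FPKM in both, and Gp6 and Treml1 were listed at 0 in incisor.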

How the data were processed

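RNA from FDG-positive cells of XLacZ4 molar and incisor pulp was sequenced in 4 libraries. Trim Galore, HISAT2, edgeR and the build mm10 appear in the submitters' processing notes. How the table was computed, scaled and annotated is not given in the sources used here. Per the file headers, the authors deposited 1 FPKM value per tissue, a log2 fold change (molar over incisor, no pseudocount), a test score, and a p-value and q-value per row. Members were matched by exact symbol, and the members and lists were chosen with earlier results of these data known. Computed here (Python 3.11.15, pandas 2.3.3, NumPy 2.4.6) were counts at q under 0.05, medians with a pseudocount of 1 over genes at 1 FPKM or more, scalings, mRNA lengths and overlaps from GENCODE M21, and motif matches in RefSeq windows. The adjustment and medians were tested on simulated data. Starts were moved by 1 base to be 1-based. Named genes were the 10 members, called genes of the lists other than marker lists (the 3 highest per direction where a list had more than 6), relatives at 10 FPKM or more, and the nearest 3 genes to Cthrc1, Tnn and Sparc (1 of these is not reported here); the planned rule also covered called markers, which are given as counts and sums with few names. Others named were chosen after their values were seen. Depth is unknown, so no interval is given. A test over samples was not fitted, since each tissue has 1 value.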

Additional observations from a re-analysis of the deposited data

How the results depend on the processing

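The 5 called members were also called under each alternative tried. These were q under 0.01, the authors' mark, an own Benjamini-Hochberg adjustment of the deposited p-values, and a minimum of 5 FPKM. Such settings could hardly remove a call. All 5 members hold the smallest q of the tested rows, 0.000664, and the own adjustment differed from the authors' q by at most 5.13e-07. The mark was carried by 17.3% of tested rows, more than the 16.2% with q under 0.05. The lowest of the 5 in its higher tissue was Tnn, at 20.7 FPKM. How firm the calls are was therefore not tested by these alternatives. The median log2 difference of the 10 members was -1.29, and it was -1.46 with a pseudocount of 0.1, -1.02 with a pseudocount of 5, -1.34 with median centring, -1.80 with equal FPKM totals and -1.55 with upper-quartile scaling. Centred on the median of genes of like transcript length, an alternative chosen after seeing the data, it was -1.24. These scalings shifted the log2 values by 0.05 (median centring), 0.60 (equal totals) and 0.30 (upper quartile), each under 1.10, the smallest log2 difference among called rows, and calls could not be recomputed under them. Of 40 member values recomputed under the 3 scalings and the length centring, 39 kept their direction, and the exception was Tnc at 0.10 when centred by length. The 3 scalings could not turn any member. All of them moved the values toward incisor, and the smallest difference toward molar, 1.02 for Sparc, exceeds the largest shift. A pseudocount cannot turn a direction, but it changed sizes: with 5 in place of 0, the log2 difference went from -4.59 to -2.13 for Tnn, from -4.99 to -2.03 for Thbs1, from -4.29 to -2.63 for Thbs2 and from -0.82 to -0.20 for Ctgf. Of 209 list genes, 25 changed sign with equal totals and 16 with upper-quartile scaling, Thbs4 and Stab1 in both and Tgfbi with equal totals; none of these was called. No paired analysis was possible because the table holds 1 combined value per tissue; leaving out a replicate was not run for the same reason. The depth of the libraries is unknown, which limits what the low molar values show.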

Other observations

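Smoc2 and Thbs2, both called higher in incisor, are neighbours on chromosome 17, with 260.7 kb and no other row of the authors' deposited table between them. The next rows on the outer sides were near 0, Dact2 at 0.0697 FPKM in incisor and 0.0869 in molar and Wdr27 at 0.0325 and 0.0211, and neither was tested. The neighbours of Cthrc1, Fzd6 (0.881 in incisor and 0.534 in molar) and Slc25a32 (0.789 and 0.338), were under 1 FPKM in both tissues and not called, beside a Cthrc1 level of 412 in molar. Next to Postn lay Trpc4 (1.09 and 0.524) and Supt20 (12.4 and 3.73), neither called. Next to Ctgf, 39.2 kb away, lay Enpp1 (0.946 in incisor and 0.872 in molar, not called). On its other side, 292.7 kb away, lay Moxd1, a copper-dependent monooxygenase-like gene (7.94 and 0.962, q = 0.0768, not called).

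Tgfbi, a fasciclin-domain relative of periostin, was more abundant than Postn in each tissue, at 111 FPKM in incisor and 165 in molar (q = 0.252, not called). The log2 difference of Tgfbi, 0.57, was -0.03 with equal FPKM totals, so its direction depends on the scaling. The difference between the folds of these relatives was not tested.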
